A study of Mus musculus with 3 samples.

Results

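The genes described here make, bind and break down retinoic acid, and they are Stra6, Rdh10, Aldh1a1, Aldh1a2, Aldh1a3, Crabp1, Crabp2, Cyp26a1 and Cyp26b1. They were chosen by name. Each of the 9 genes had 1 probe set that carried its symbol alone, so 9 of 41345 probe sets, and 9 of 22180 genes with such a probe set, were described. RNA came from 3 replicate cultures of wild-type CD-1 mouse medial ganglionic eminence (MGE) taken at embryonic day 13, and the 3 cultures form 1 group without a comparison group. The MGE is a swelling of the floor of the developing forebrain from which many interneurons of cortex and striatum come. All cultures received FGF2 at 40 ng/ml and B27 supplement at 2%, then AraC, a nucleoside analogue that kills cells in DNA synthesis, at 1 µM for 24 h from day 5. After 3 changes of medium the cells were kept for 2 more days. Gene expression was measured on a 1-colour array from 100 ng of RNA per culture.

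Retinoic acid is made from vitamin A (retinol). STRA6 is a membrane receptor that takes up retinol from its carrier RBP4, RDH10 oxidizes retinol to retinal, and the ALDH1A enzymes oxidize retinal to retinoic acid. CRABP1 and CRABP2 bind retinoic acid in the cell, CYP26 enzymes degrade it, and the RAR and RXR nuclear receptors carry out its effects on transcription. In the embryonic forebrain retinoic acid acts in the differentiation of striatal and other ventral neurons, and the meninges are a known source. B27 is sold with or without a vitamin A ester. The labels do not say which was used, and retinoids in the medium were not measured here.

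Values are log2 signals, and a level is compared between cultures and with a background line. Levels of different genes are not compared, because probes of different sequence bind with different strength. The line comes from probe sets of other genes, so the distance of a gene to it has the same limit. The background line was 6.26 log2 units, the 95th percentile of the means of 1440 probe sets for receptors of smell, pheromones and bitter taste. A gene was called above background when limma's 1-sided moderated test of its mean against the line gave an adjusted p under 0.05. By this rule 63.4% of the 20751 genes tested were above background, and 47.6% were when the mean had to lie 1 log2 unit higher (a margin of 1). The test takes the line as a fixed value. Some receptor probe sets lie over the line by its definition, so a call does not by itself show that a transcript was present. Pearson's r between arrays across probe sets was 0.983 to 0.991, and the arrays' medians were 6.52 to 6.57. The number of arrays limits the precision. In a whole culture, fewer cells of a type and less RNA per cell cannot be told apart.

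Of the 12 measured MGE interneuron markers, 12 were above background, among them Gad1, Gad2, Lhx6 and Nkx2-1. The cultures were labelled as purified interneurons. Yet 9 of 9 measured oligodendrocyte lineage markers and 10 of 10 markers of progenitors and dividing cells were above background too. So were 8 of 10 astrocyte markers. Among all genes tested the share was 63.4%. Aqp4 (8.20 ± 0.61), Gfap (7.74 ± 0.98) and Aldh1l1 (10.26 ± 0.45) were among the astrocyte markers called, and S100b (6.55 ± 0.33) was not (SD, n = 3). The call of Gfap was lost without culture 1 (limma, adjusted p = 0.0888) and without culture 3 (0.10). Which cells gave the signal of a retinoid gene was therefore not resolved.

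Cyp26a1 and the receptor gene Rarb are textbook targets of retinoic acid, and their start regions are shown because one was below the line and the other above it. Both hold a retinoic acid response element of the kind DR5, a direct repeat of 2 half-sites with 5 bases between them. The half-site AGGTCA was searched on both strands, as was GGGTCA, the variant AGTTCA and the variant written GGTTCA, in any pairing and with any bases between them. The sequences are from RefSeq, GRCm38.p6, 5′ to 3′ on the gene's strand, and cover the 250 bases before the annotated start. The half-sites are in capitals. The Cyp26a1 region is chr19:37697558-37697807, plus strand. The Rarb region is chr14:16575477-16575726, minus strand.
Cyp26a1: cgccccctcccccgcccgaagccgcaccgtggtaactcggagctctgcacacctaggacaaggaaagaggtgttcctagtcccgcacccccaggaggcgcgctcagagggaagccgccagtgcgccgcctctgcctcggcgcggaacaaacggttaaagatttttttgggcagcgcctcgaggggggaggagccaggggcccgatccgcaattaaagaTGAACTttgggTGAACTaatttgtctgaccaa
Rarb: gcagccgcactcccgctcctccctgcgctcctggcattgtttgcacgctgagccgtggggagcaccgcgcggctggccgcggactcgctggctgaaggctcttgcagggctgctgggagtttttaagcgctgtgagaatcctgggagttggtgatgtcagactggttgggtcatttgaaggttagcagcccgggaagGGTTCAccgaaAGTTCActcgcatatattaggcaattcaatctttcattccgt

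The Cyp26a1 element lies 32 to 16 bases before the annotated start on the strand opposite to the gene, and the Rarb element 53 to 37 bases before its start on the gene's own strand. Read along the strand of the repeat, they share the second half-site.
Cyp26a1 element: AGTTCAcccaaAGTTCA
Rarb element: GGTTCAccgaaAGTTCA

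Such a DR5 repeat was found in 0.0883% of the 32851 windows of the same 250 bases in the table, and repeats with spacers of 1 and 2 bases in 0.164% and 0.174%. The table held 10 windows for 6 of the 9 retinoid genes, namely Stra6, Aldh1a1, Aldh1a2, Crabp1, Cyp26a1 and Cyp26b1. Among these windows the repeat of Cyp26a1 was the one match with any of the 3 spacers. A match is a run of letters and not a measured site, and elements farther away were not searched. GC content was 61.6% in the Cyp26a1 window, against a median of 52.4% over all windows. The window of Aldh1a2 stood at 77.6% GC with 40 CG pairs, where the median window had 6, and those of Aldh1a1 had 42.8% and 46.4% GC.

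Over all 9 genes, 5 (55.6%) were above background, beside 63.4% of all genes tested, and 2 were with a margin of 1, beside 47.6%. The 5 were Stra6, Rdh10, Aldh1a1, Crabp1 and Cyp26b1, of which Rdh10 and Crabp1 kept the call with the margin. Each of these 5 was over the line in all 3 cultures. Aldh1a2, Aldh1a3 and Cyp26a1 were under it in all 3, and Crabp2 was over it in 2. At the 99th percentile of the receptor probe sets, 7.10 log2 units, 2 of the 9 were above background, again Rdh10 and Crabp1, and 49.9% of all genes were. The same 2 of 9 were called with other gene families as background, where 48.1% of all genes were.

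**Figure D1:**
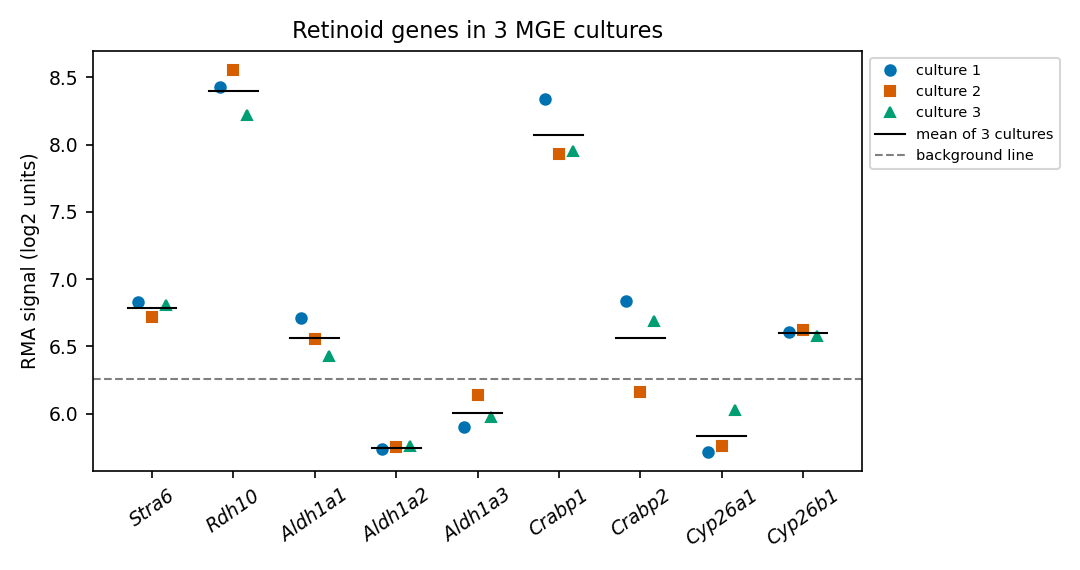
RMA signal in log2 units (vertical axis) of the 9 retinoid genes in cultures 1, 2 and 3 (points), with the mean of the 3 cultures (bars) and the background line at 6.26 (dashed). Rdh10 and Crabp1 lie well over the line in every culture, Aldh1a2, Aldh1a3 and Cyp26a1 lie under it in every culture, and Crabp2 is under it in culture 2.

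The genes for retinol uptake and its first oxidation, Stra6 and Rdh10, were both above background. Of these, Rdh10 kept the call with a margin of 1 and Stra6 did not. Uptake and oxidation themselves were not measured. Stra6, the retinol receptor, read 6.83, 6.72 and 6.81 log2 units in cultures 1, 2 and 3. The 3 values lay close together and all were over the line. The mean was 6.79 ± 0.06 (SD, n = 3), 0.53 above the line (limma, adjusted p = 0.000505). Rdh10, the enzyme that turns retinol into retinal, read 8.43, 8.55 and 8.22 log2 units. Culture 3 was the lowest, and all 3 values were far over the line. Its mean of 8.40 ± 0.17 (SD, n = 3) exceeded the line by 2.14 (limma, adjusted p = 1.56e-05).

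Of the 3 retinal dehydrogenases, which carry out the last step to retinoic acid, Aldh1a1 was above background and the other two were not. Aldh1a1 read 6.71, 6.56 and 6.43 log2 units in cultures 1, 2 and 3, all over the line but with culture 3 near it. The mean of 6.56 ± 0.14 (SD, n = 3) was 0.30 above the line (limma, adjusted p = 0.012). That call was lost without culture 2 (limma, adjusted p = 0.123), when the line itself rose to 6.35. The call of Aldh1a1 was also lost with a margin of 1, at the 99th percentile of the receptor probe sets and with other gene families as background. Aldh1a7, a close paralogue of Aldh1a1 whose transcripts could bind the same probes, read 4.98, 5.03 and 4.85, under the line in every culture. Whether Aldh1a7 transcripts contributed to the signal of Aldh1a1 was not tested.

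Aldh1a2, the dehydrogenase known from the meninges, read 5.74, 5.75 and 5.76 log2 units. These values span 0.02 log2 units, and all lie under the line. The mean was 5.75 ± 0.01 (SD, n = 3) with a 95% interval of 5.62 to 5.88, whose upper end stays under 6.26. Aldh1a3, an isoform known from the lateral ganglionic eminence and the olfactory system, read 5.90, 6.14 and 5.97. Its mean of 6.01 ± 0.12 (SD, n = 3) had a 95% interval of 5.82 to 6.20, also under the line. With the line at the 90th percentile of the receptor probe sets, 5.82, where 72.5% of all genes and 7 of the 9 were called, Aldh1a3 was above it (limma, adjusted p = 0.0382) and Aldh1a2 was not (adjusted p = 1). An array signal under the line does not show that a transcript was absent.

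The 2 cellular binding proteins differed in their calls. Crabp1 read 8.34, 7.93 and 7.95 log2 units in cultures 1, 2 and 3, with culture 1 the highest and every value far over the line. Its mean of 8.07 ± 0.23 (SD, n = 3) was 1.81 above the line (limma, adjusted p = 5.81e-05). Crabp2, which delivers retinoic acid to its nuclear receptor, read 6.84, 6.16 and 6.69. Culture 2 was under the line and the others were over it.

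The mean of Crabp2 was 6.56 ± 0.36 (SD, n = 3), 0.30 above the line, and it did not pass the test (limma, adjusted p = 0.0897). Its 95% interval, 6.15 to 6.98, held the line. Without culture 2 it passed (mean 6.76, adjusted p = 0.0157), and without culture 1 or 3 it did not (0.259 and 0.279). It also passed after quantile normalization (0.0479), after median centring (0.0462) and with the line at the 90th percentile (0.00541). Aldh1a1 and Crabp2 had the same distance to the line, 0.30, and SDs of 0.14 and 0.36.

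Among the enzymes that break retinoic acid down, Cyp26b1 was above background and Cyp26a1 was not. Cyp26b1 read 6.61, 6.62 and 6.58 log2 units in cultures 1, 2 and 3, a span of 0.05. The mean of 6.60 ± 0.02 (SD, n = 3) was 0.34 above the line (limma, adjusted p = 0.00182). The call held without each culture in turn (limma, adjusted p = 0.00955, 0.0155 and 0.0171). That call was lost with a margin of 1, at the 99th percentile of the receptor probe sets and with other gene families as background. Cyp26a1, whose start region carries the response element shown above, read 5.72, 5.76 and 6.03. Culture 3 was the highest, and all 3 cultures were under the line. The mean was 5.84 ± 0.17 (SD, n = 3) with a 95% interval of 5.61 to 6.06. The third enzyme of the family, Cyp26c1, read 5.90, 5.80 and 5.79, under the line in every culture.

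The spread of the 9 genes between cultures was close to that of other genes. Their median SD was 0.14 log2 units, beside 0.13 over all genes tested, and 4 of the 9 had an SD below 0.13. The smallest SD, 0.01, was that of Aldh1a2, and 1.73% of probe sets tested had a smaller one. Crabp2 had the largest, 0.36, and 94.4% of probe sets had a smaller one. Its highest and lowest cultures differed by 0.68 log2 units, a ratio of 1.60 on the linear scale. No test between cultures is possible, since each is a single array.

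The 9 genes did not share 1 order of the cultures. Culture 1 was the highest for 4 of them (Stra6, Aldh1a1, Crabp1 and Crabp2), culture 2 for 3 (Rdh10, Aldh1a3 and Cyp26b1) and culture 3 for 2 (Aldh1a2 and Cyp26a1). Over all genes tested, culture 1 was the highest for 33.2%, culture 2 for 44.3% and culture 3 for 22.5%. The median deviation of the 9 genes from their own means was 0.03, -0.01 and -0.03 log2 units in cultures 1, 2 and 3.

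Marker lists of glia were not level across the cultures either. The median deviation of the 10 astrocyte markers was 0.35, -0.42 and 0.04 log2 units in cultures 1, 2 and 3, and their mean level was 9.12, 8.33 and 8.79. Crabp2 deviated by 0.28, -0.40 and 0.12 in the same cultures, so both were lowest in culture 2. Culture 2 was also the lowest for 32.5% of all genes tested. The median deviations of progenitor markers (0.19, -0.11 and -0.05) and microglia markers (0.07, -0.15 and 0.06) were lowest there too. That of the endothelial markers was lowest in culture 3 (-0.10). The 9 oligodendrocyte lineage markers had mean levels of 9.72, 9.21 and 9.34, and Crabp1 deviated by 0.26, -0.14 and -0.12. MGE interneuron markers ran the other way, with mean levels of 10.09, 10.50 and 10.38. The part of the cell makeup in the values of Crabp1 and Crabp2 was not tested.

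**Figure D2:**
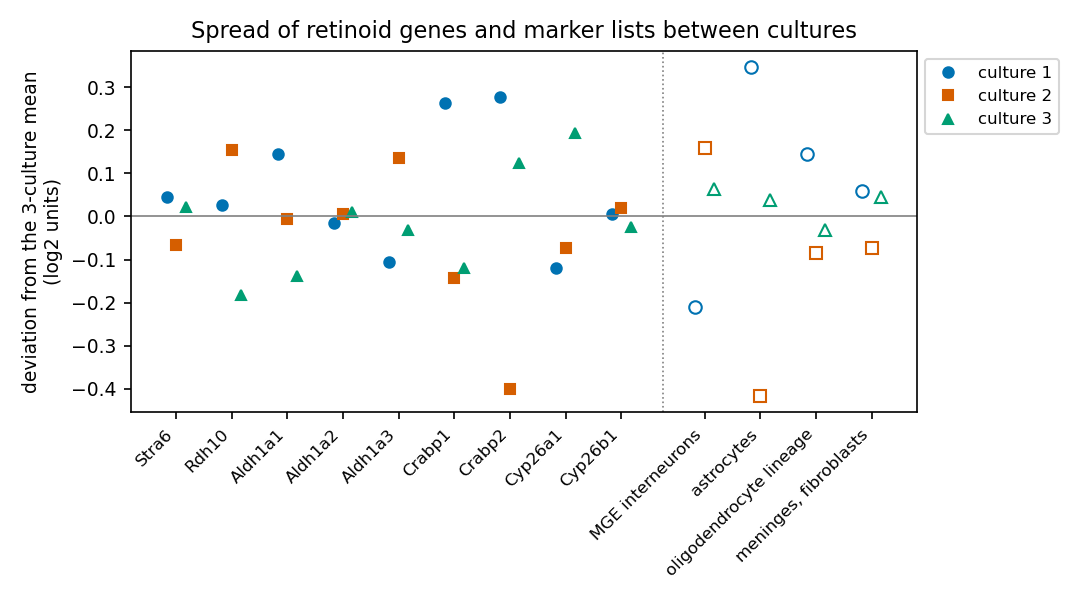
Deviation from the 3-culture mean in log2 units (vertical axis) of each retinoid gene (filled points, left) and the median deviation of the members of 4 marker lists (open points, right), by culture. Crabp2 stands 0.40 under its mean in culture 2, where the astrocyte list stands 0.42 under, while the interneuron list is lowest in culture 1. Lists not shown, such as those of progenitors and microglia, are also lowest in culture 2.

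Lists of other cell types known to express these genes held markers on both sides of the line, some far over it. In the list for meninges and fibroblasts, a known site of Aldh1a2, 7 of 13 markers (53.8%) were above background, beside 63.4% of all genes tested. With a margin of 1, 2 were, beside 47.6% of all genes. Col1a1 (7.22 ± 0.22) and Foxc1 (6.73 ± 0.16) were among the 7, and Col1a2 (6.28 ± 0.20) and Dcn (6.02 ± 0.22) were not (SD, n = 3). The 2 with a margin of 1, named after their values were seen, were Fn1 (9.14 ± 0.27) and Bgn (8.63 ± 0.33), both of the extracellular matrix. The mean level of this list was 6.72, 6.59 and 6.65 in the 3 cultures. For the choroid plexus and pigment epithelium, which use Stra6, 3 of 9 measured markers (33.3%) were above background, with mean levels of 6.40, 6.31 and 6.51. Folr1 (6.42 ± 0.10), a folate receptor, and Clic6 (5.03 ± 0.18) did not pass, and the 1 marker with a margin of 1 was the transcription factor Otx2 (8.74 ± 0.31), named after its value was seen.

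Endothelial markers passed in 7 of 10 cases (70%, beside 63.4% of all genes tested), with mean levels of 7.15, 7.08 and 6.94. With a margin of 1, 2 passed, beside 47.6% of all genes. Pecam1 (6.52 ± 0.14), Cdh5 (6.81 ± 0.27) and Cldn5 (6.52 ± 0.15), proteins of vessel cell junctions, passed, and Tek (5.80 ± 0.17) did not (SD, n = 3). The call of Pecam1 was lost without culture 1 (limma, adjusted p = 0.0714) and without culture 2 (0.216), and that of Cldn5 without culture 1 (0.0802) and without culture 3 (0.116). The 2 with the margin, named after their values were seen, were the transporters Mfsd2a (9.47 ± 0.33) and Slco1c1 (9.09 ± 0.70).

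For dopamine neurons of the midbrain, which use Aldh1a1, 7 of 10 markers (70%) were above background, beside 63.4% of all genes tested. With a margin of 1, 1 was, beside 47.6% of all genes. Mean levels of this list were 6.74, 6.82 and 6.96. Without culture 3, 4 of 10 were above background, beside 60.9% of all genes, with Foxa2 among those lost (limma, adjusted p = 0.0719). Th (6.70 ± 0.10), the enzyme that makes the dopamine precursor, and the transcription factors Lmx1b (7.32 ± 0.22) and Foxa2 (6.59 ± 0.16) passed (SD, n = 3). Slc6a3 (6.44 ± 0.14), the dopamine transporter, did not. The 1 marker with the margin was Nr4a2 (9.79 ± 0.77), a transcription factor named after its value was seen. In the striatal list 8 of 11 measured markers (72.7%) were above background and 4 were with a margin of 1, with mean levels of 7.09, 7.21 and 7.15. Drd2 (7.63 ± 0.08), a dopamine receptor, and the transcription factors Foxp2 (7.02 ± 0.13) and Ebf1 (7.16 ± 0.10) passed, and Drd1 (5.81 ± 0.22) did not. Whether the signal of a marker in these lists came from the cell type of its list was not tested. Nor was any contribution of such cells to the signal of the retinoid genes.

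The receptors through which retinoic acid acts were all above background, beside 63.4% of all genes tested. The 6 genes were Rara, Rarb and Rarg, which bind retinoic acid, and their partners Rxra, Rxrb and Rxrg. With a margin of 1, 4 of them were above background, beside 47.6% of all genes. Rarb read 8.25, 8.44 and 8.12 log2 units, with a mean of 8.27 ± 0.16 (SD, n = 3; limma, adjusted p = 1.69e-05). It was lowest in culture 3, as were Rdh10 and 28.5% of all genes tested. Rarg (6.91 ± 0.01) and Rxrg (6.55 ± 0.09) were the members without the margin's call (SD, n = 3).

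In the list for uptake and storage, 5 of 12 measured genes (41.7%) were above background, beside 63.4% of all genes tested. With a margin of 1, 2 were, beside 47.6% of all genes. Rbp4, the plasma carrier that STRA6 receives retinol from, read 7.28, 8.19 and 7.83 log2 units and passed (limma, adjusted p = 0.0011), with culture 1 the lowest. Ttr, the partner of RBP4 in plasma and an abundant product of the choroid plexus, read 6.58, 6.34 and 7.50. It was highest in culture 3 and did not pass (adjusted p = 0.0741).

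Lrat, which stores retinol as an ester, read 6.03, 6.20 and 6.40 and did not pass (limma, adjusted p = 1), while Dgat1, an acyltransferase that can also esterify retinol, passed at 9.34 ± 0.03 (SD, n = 3). Stra6l, a relative of Stra6, passed with all cultures (limma, adjusted p = 0.0358) but not without culture 1 (0.127) or culture 3 (0.163). Scarb1, a lipid uptake receptor, and Lpl, a lipase that frees retinol from its esters in lipoproteins, passed as well. A second probe set of Lpl, at 4.62, did not. Rbp2, Rbp3, Rbp7, Bco1 and Bco2 did not pass.

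Of 17 genes for steps between retinol and retinal, 6 (35.3%) were above background, beside 63.4% of all genes tested. With a margin of 1, 5 were, beside 47.6% of all genes. The 6 were Rdh11, Rdh13, Rdh14, Dhrs4, Adh5 and Akr1b10, oxidoreductases of broad expression. Rdh11 was at 10.22 ± 0.20 and Adh5 at 9.16 ± 0.06 (SD, n = 3). Dhrs3, which returns retinal to retinol and is induced by retinoic acid, read 6.02, 5.96 and 6.27 and did not pass (limma, adjusted p = 1). The remaining 10 genes, such as Rdh5, Rdh12, Adh1 and Adh7, did not pass either. A second probe set of Rdh13, at 4.01, was under the line.

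Among 6 other genes of the acid step, 2 (33.3%) passed, Fabp5 and Cyp2s1, beside 63.4% of all genes tested. With a margin of 1, 1 passed, Fabp5, beside 47.6% of all genes. Fabp5, a fatty acid carrier that can also bind retinoic acid, had 4 probe sets, all above background (its pseudogenes could share probes), the highest at 10.38 ± 0.09 (SD, n = 3). Cyp2s1, a P450 enzyme that can act on retinoids, was at 6.54 ± 0.07. Cyp1b1 and Aldh8a1, 2 other enzymes that can act on retinoids, were under the line in every culture. Over the 4 lists together, 19 of 41 measured genes (46.3%) were above background, beside 63.4% of all genes tested. With a margin of 1, 12 were, beside 47.6% of all genes.

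**Figure D3:**
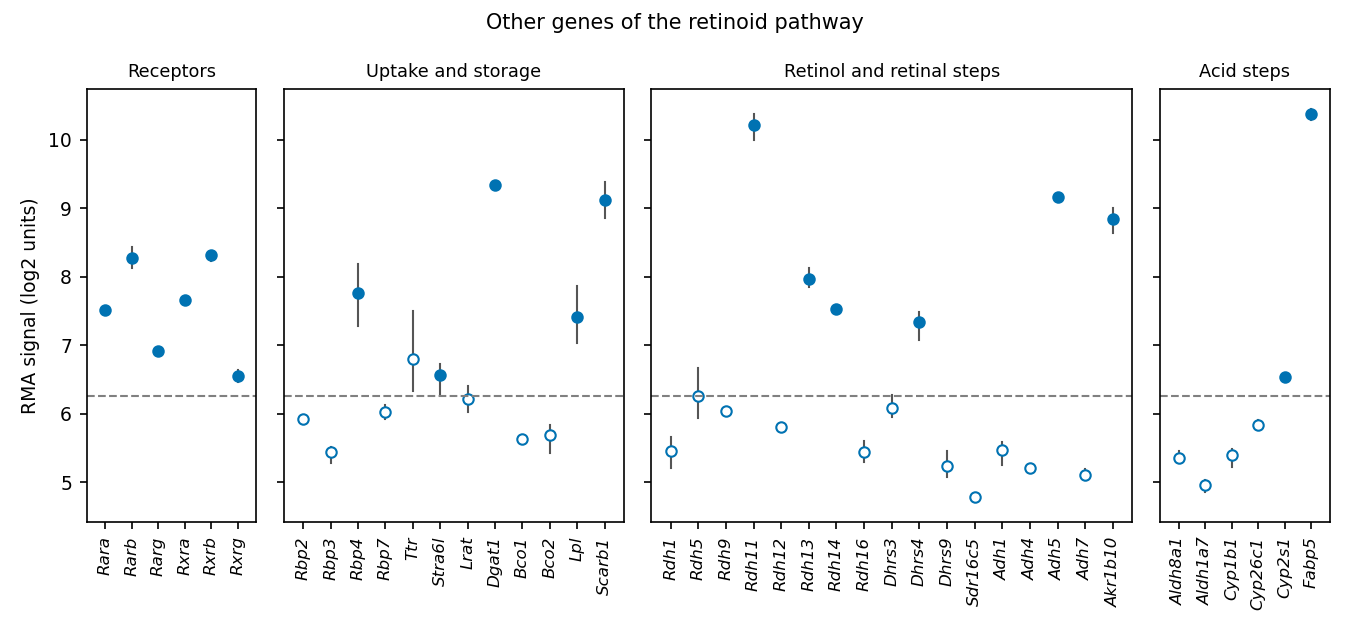
Mean RMA signal in log2 units (vertical axis) of 41 other genes of the retinoid pathway in 4 lists, with the range over the 3 cultures (vertical bars) and the background line at 6.26 (dashed). Filled points are above background by the test and open points are not, and all 6 receptors are filled.

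Genes known to be induced by retinoic acid in some tissue were above background at about the share of all genes. Of 23 measured, 14 (60.9%) passed, beside 63.4% of all genes tested, and 9 did with a margin of 1, beside 47.6%. Of the 18 that are not among the 9 retinoid genes, 11 (61.1%) passed. Nrip1 (8.57 ± 0.09), a corepressor of nuclear receptors, Meis2 (11.00 ± 0.21), a homeobox factor of the ventral forebrain, and Zbtb16 (8.07 ± 0.25), a zinc finger factor, were among them (SD, n = 3). Tgm2 (6.77 ± 0.02), a transglutaminase, passed without the margin's call.

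Stra8, a gene of germ cells entering meiosis, read 4.94, 4.94 and 4.73 and did not pass. Of the targets of retinoic acid most often used as readouts, Rarb was thus above background, while Dhrs3 and Cyp26a1 were not. No culture with retinoic acid added or withheld was analysed here, so no gene is described as induced.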

How the data were processed

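The authors deposited log2 values, 1 for each probe set in each culture. Per the submitters' processing notes, oligo and RMA were used, a method that removes background, brings arrays to a common distribution and combines the probes of a set. Their versions, the settings and the genome build are not given in these sources. Symbols are those of the platform annotation, where 23521 probe sets carry 1 symbol, 1814 several and 16010 none. Probe sets with 1 symbol outside the receptor families (22081) were fitted with an intercept in limma 3.58.1 (R 4.3.3) over 3 cultures. The p-values were adjusted by Benjamini-Hochberg over all of them. A gene with several probe sets counted as above background when 1 or more were, and its brightest set by mean is printed. The 95% intervals are moderated intervals of the mean from the same fit.

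The retinoid genes and the lists were chosen with earlier results of these data known, so list counts are descriptions. The text names all 9 retinoid genes, genes of the pathway lists, fixed readout targets and, for most marker lists, the first 4 markers with a probe set of their own. Markers outside this rule are marked as named after their values were seen. No gene was ranked by likeness to a member, since 3 cultures are too few. Replicates are labelled as biological, but the labels do not tell whether they came from separate litters. The p-values rest on the spread between these 3 samples, moderated by that of all probe sets fitted, and leave out the uncertainty of the line. In all, 13 alternatives were run.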

Additional observations from a re-analysis of the deposited data

How the results depend on the processing

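Of the 13 alternatives, the higher lines moved the counts most. With the 99th percentile, with other families as background (line 7.25) and with a margin of 1, 2 of the 9 retinoid genes were above background in each case, in place of 5, and the share of all genes was 49.9%, 48.1% and 47.6%, in place of 63.4%. At the 90th percentile the counts were 7 of 9 retinoid, 25 of 41 pathway and 18 of 23 target genes (all genes 72.5%), and 6 of 9 were called after quantile normalization and after median centring. Other pathway genes fell from 19 to 12 with the other families and to 12 with the margin, and target genes from 14 to 9 and 9. Without each replicate in turn the retinoid count was 5, but without culture 2 Aldh1a1 lost its call and Crabp2 gained one. Under the 99th percentile and the other families, respectively, the means lay under the line by -0.53 and -0.68 (Aldh1a1), -0.49 and -0.64 (Cyp26b1) and -0.31 and -0.46 (Stra6). Calls of Rdh10 and Crabp1 held in all 13 alternatives, and Aldh1a2 and Cyp26a1 were not called in any. The median SD of the 9 genes was 0.14, 0.15 after median centring, and 0.09, 0.11 and 0.09 without cultures 1, 2 and 3, though values over 2 cultures are not on a par with those over 3. No paired analysis was possible because the 3 cultures form 1 group. With 3 arrays, the calls of Aldh1a1 and Crabp2, both 0.30 log2 units over the line, changed without culture 2, when the line was 6.35. The mean of Aldh1a1 was then 6.57, beside 6.56 with all cultures. The call of Crabp2 also changed after quantile normalization and after median centring.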
